A study of Mus musculus with 12 samples.

Results

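The response of hippocampal neurites to proteasome inhibition was read from 6 of the 12 libraries of the study, the 3 titled MG132 neurites and the 3 titled Ctrl neurites. Of the 27179 genes listed in the count files, 14185 had enough counts to be tested. The cultures were primary hippocampal neurons from newborn mice, labelled C57BL/6 in the sample records (the study's methods name both C57BL/6 and FVB as the source of its hippocampal cultures), and were grown on Transwell membrane inserts for 17 or 18 days. MG132, a peptide aldehyde that blocks the proteasome, was given at 10 μM for 7 h, and Ctrl cultures received the solvent DMSO. Neurites, which here means axons and dendrites together, were lysed from the membrane after the somas had been scraped off. The somas of the same cultures make up the other 6 libraries (3 MG132 somas, 3 Ctrl somas) and are described below only for comparison. All 12 libraries were scaled and fitted in 1 model, so the somas libraries also entered the neurites p-values. Libraries are called Ctrl 1 to 3 and MG132 1 to 3 by the replicate numbers in their titles. Nothing in the sources used here says that the libraries of a group came from separate cultures, so the p-values measure the spread between libraries, which may be technical.

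The proteasome degrades proteins tagged with ubiquitin. Its 20S core holds the proteolytic sites, and its 19S cap recognizes, unfolds and feeds the substrates. When it is blocked, cells are known to raise proteasome subunits through the transcription factor NRF1, chaperones through HSF1, and amino acid supply genes through ATF4, while NRF2 drives antioxidant genes and NF-κB drives cytokine genes. Neurites carry mRNAs of their own, and cultures of this kind also hold glia whose processes can pass through a porous membrane.

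Each neurites library held between 5750510 and 22166347 counted reads. A gene without a symbol (Entrez100861531) took 17.0% to 33.4% of them, and mitochondrial genes took 13.5% to 29.2%. Levels are given as CPM, counts scaled to a common library size with TMM factors, which are set so that most genes do not differ between libraries. A gene was called when edgeR's adjusted p was under 0.01 and its fold change was beyond 1.7 in either direction. In a principal component analysis of the 6 libraries, MG132 and Ctrl lay at opposite ends of the first component (47.6% of the variance), and both libraries numbered 1 lay apart from the other 4 on the second (22.4%). Neuron markers were present in every neurites library but so were those of glia (*Gfap* between 6893 and 21600 CPM, *Mbp* between 2323 and 18913 CPM). The label neurites therefore covers material of several cell types. The nuclear RNA *Malat1* measured between 1457 and 3580 CPM in the same libraries, and the part of RNA from nuclei or cell bodies was not measured. In such bulk samples, fewer cells of a type and less RNA per cell cannot be told apart.

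Upon MG132, 1312 genes (9.25% of those tested) were called higher in neurites and 772 (5.44%) were called lower. Every called gene kept its direction within each of the 3 pairs of libraries that share a number, and the CPM ranges of the groups did not overlap for 1312 of the genes called higher and 770 of those called lower. Such separation without regard to the test was found for 2900 genes (20.4%) in the upward and 2897 (20.4%) in the downward direction. Of the genes called higher, 1288 lay outside the list of heat shock proteins. The median log2 fold change was 1.33 among genes called higher and -1.54 among those called lower, against -0.16 for all tested genes, and 55 and 65 genes passed a log2 change of 3 in either direction. Together the genes called higher took 52460 to 62790 CPM of the Ctrl libraries and 147400 to 162900 CPM of the MG132 libraries, while those called lower went from between 78960 and 86370 to between 30750 and 37040 CPM.

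The split between higher and lower depended on the scaling. On total counts, with no TMM factors, 481 genes passed upward and 538 downward, so that the share of calls that were higher dropped from 63.0% to 47.2% while the median of all tested genes shifted by -0.14 on the log2 scale. The replicate numbers were taken to pair the libraries. A fit with this block called 1668 genes (11.8%) higher and 1383 (9.75%) lower, among them 1311 and 768 of the genes above. Without both libraries numbered 1 the counts were 915 and 341. Leaving out a single library gave 489 genes called lower without Ctrl 3, 485 without MG132 1 and 409 without MG132 3.

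**Figure D1:**
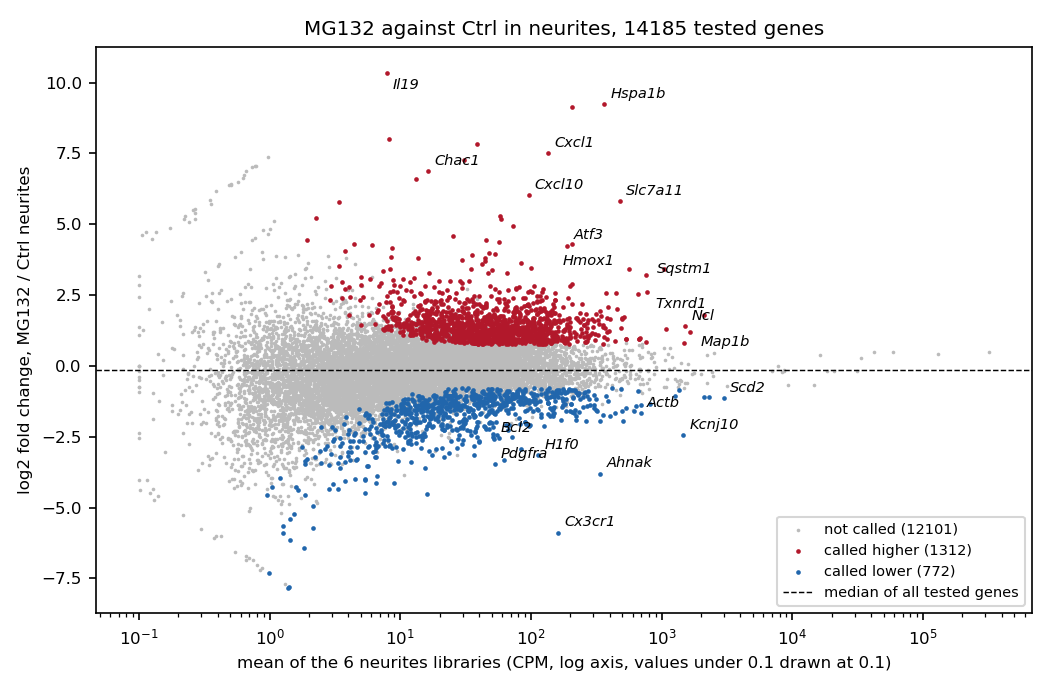
Each point is a tested gene, placed by its mean level over the 6 neurites libraries (CPM, log axis) and its log2 fold change between MG132 and Ctrl neurites. The 1312 genes called higher (red) and the 772 called lower (blue) lie mostly above 5 CPM, and the dashed line marks the median of all tested genes at -0.16.

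Calls were tied to level. Among the 856 genes at a mean of up to 1 CPM, 0% were called higher and 0.234% lower, while among the 4412 genes between 20 and 100 CPM the shares were 17.6% and 7.52%. Above 100 CPM, 22.7% of 1266 genes were called higher and 10.4% lower. Low genes that were not called could therefore not be resolved at this depth, and their number says little about whether they moved.

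The largest increases outside the heat shock proteins were cytokines, stress-induced enzymes and a cystine transporter. *Slc7a11* encodes the subunit of the cystine-glutamate exchanger that imports cystine for glutathione synthesis (Entrez 26570, chr3:50364936-50499087, GRCm38). It measured 15.3, 19.6 and 14.3 CPM in Ctrl neurites and 1006, 867 and 942 CPM in MG132 neurites. The groups were far apart and the libraries within each were close, at 16.4 ± 2.79 and 938 ± 69.8 CPM (SD, n = 3). This was a 56.8-fold difference (log2 fold change 5.83, SE 0.22, adjusted p = 9.89e-10). *Chac1*, a glutathione-degrading enzyme, went from 0, 0.335 and 0.336 CPM to 34, 33.2 and 30.4 CPM (log2 fold change 6.88, SE 0.43). Only 5 reads of *Chac1* were counted in the 3 Ctrl libraries against 1055 in the MG132 libraries, so the size of this change is less certain than its direction. *Gadd45b*, a stress sensor that activates MAP kinases, rose from 1.06, 5.70 and 1.68 CPM to 96.0, 106 and 141 CPM.

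Secreted signals made up much of the rest. The chemokines *Cxcl1* (0, 0.447 and 3.87 CPM in Ctrl, 108, 201 and 501 CPM in MG132), *Cxcl2*, *Cxcl10*, *Ccl2* and *Ccl7* attract leukocytes. *Cxcl10* rose from 2.38, 3.24 and 2.86 CPM to 97.2, 205 and 265 CPM (log2 fold change 6.03, SE 0.61, adjusted p = 8.80e-06). The MG132 libraries of *Cxcl1* and *Cxcl10* spread widely, but none came near the Ctrl range. *Lif*, a cytokine of the interleukin-6 family, rose from 2.12, 6.04 and 4.88 CPM to 88.7, 124 and 210 CPM, and *Gdf15*, a stress-induced hormone, from at most 0.336 CPM to between 10.3 and 36.0 CPM. *Il19* had no read in the Ctrl libraries and 520 in the MG132 libraries, which makes it at least 29.0-fold higher with a floor of 3 counts per library. *Mmp13*, a collagenase, had 1 read in Ctrl and 811 in MG132 (ratio 471, 95% interval 84.3 to 18630). Floors and intervals of this kind cover counting error only.

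**Figure D2:**
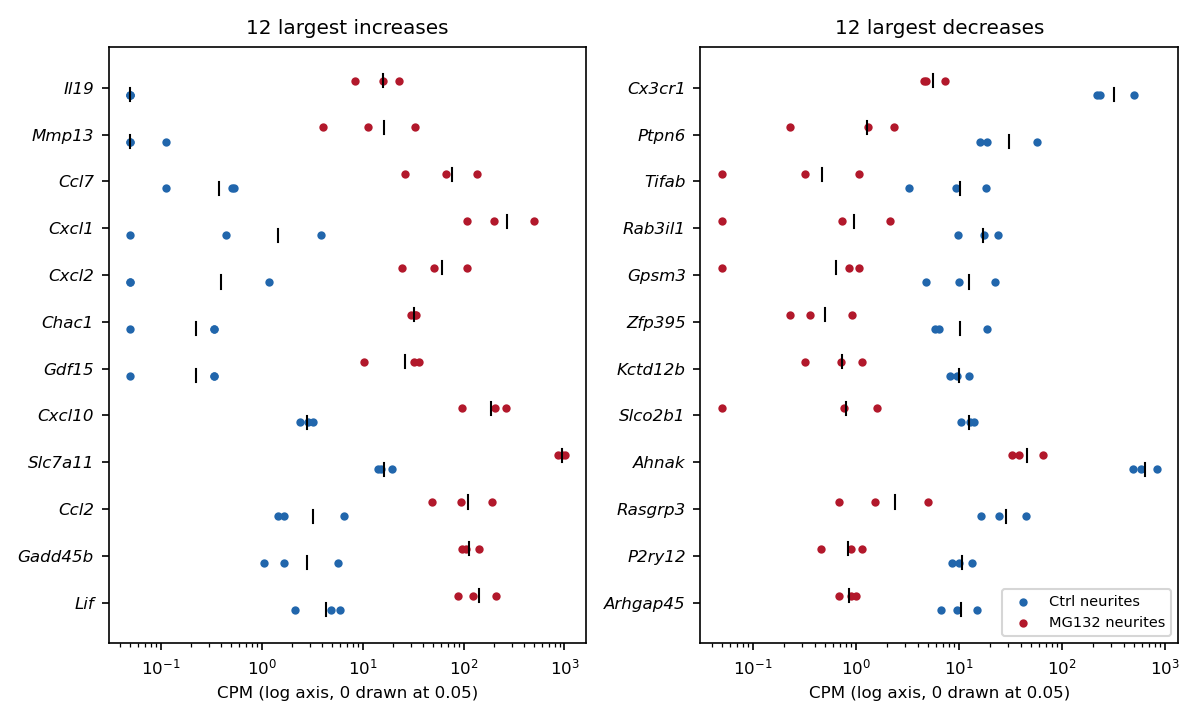
Levels in each neurites library (CPM, log axis, 0 drawn at 0.05) of the 12 genes with the largest increases and the 12 with the largest decreases at a mean of at least 5 CPM, heat shock proteins left out. Each point is a library, black ticks are group means, and the groups do not overlap for any of these genes.

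By absolute level, the largest increases outside the heat shock proteins were found for genes of the nucleolus, the cytoskeleton, translation initiation, selective autophagy and the antioxidant response. *Sqstm1*, which encodes the autophagy receptor p62 that binds ubiquitinated cargo, rose from 122, 155 and 170 CPM to 1013, 1381 and 1744 CPM (log2 fold change 3.21, SE 0.23, adjusted p = 7.37e-07). *Hmox1*, which degrades heme, rose from 36.2, 104 and 148 CPM to 701, 1224 and 1169 CPM. *Txnrd1*, the cytosolic thioredoxin reductase, rose from 215 ± 81.7 to 1323 ± 237.6 CPM (SD, n = 3). In all 3 the lowest MG132 library lay well above the highest Ctrl library. *Ncl* (nucleolin, needed for ribosomal RNA synthesis) rose from 822 ± 149.9 to 2195 ± 184 CPM, *Map1b* (a microtubule-binding protein of growing axons) from 999.8 ± 120.6 to 2317 ± 106 CPM and *Eif3a* (a subunit of translation initiation factor 3) from 624 ± 157 to 1550 ± 28.2 CPM (SD, n = 3). On total counts these last 3 were not called.

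Genes of the drug's own target rose widely. Of 19 genes for the 19S cap, 18 were called higher and 0 lower, with a median log2 fold change of 1.59, and the summed level of the group rose from between 961 and 1169 CPM to between 2814 and 3317 CPM. *Psmd6*, a lid subunit, measured 38.6, 47.8 and 33.0 CPM in Ctrl and 192, 221 and 193 CPM in MG132 neurites (log2 fold change 2.34, SE 0.18, adjusted p = 8.28e-07). *Psmd4*, a ubiquitin receptor of the cap, rose from between 42.1 and 59.7 to between 175 and 217 CPM, and *Psmd12* from between 36.0 and 52.3 to between 153 and 190 CPM. Of 17 tested genes for the 20S core, 10 were called higher and 0 lower (median 1.22), and *Psma7*, *Psma4* and *Psmb4* were the clearest. The members not called included the inducible subunits of the immunoproteasome. On total counts 12 of the cap genes and 2 of the core genes were called higher, and *Psma4* and *Psmb4* were not.

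Around the proteasome, 7 of 18 assembly factors and activators were called higher, among them *Psme4*, the PA200 activator (61.9, 68.0 and 76.5 to 191, 206 and 221 CPM), *Txnl1* and *Usp14*, a deubiquitinase bound to the cap. Of 36 genes for the p97 unfoldase, its cofactors and the ubiquitin shuttles, 15 were called higher and 0 lower (median 0.69). *Nploc4*, which recruits ubiquitinated proteins to p97, rose from 29.9, 37.6 and 34.3 CPM to 139, 160 and 160 CPM (log2 fold change 2.17, SE 0.18). *Rad23b*, a shuttle, rose from 90.9 ± 4.76 to 284 ± 18.3 CPM (SD, n = 3) and *Plaa*, a p97 cofactor, from between 52.6 and 64.3 to between 211 and 221 CPM.

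Some of the enzymes that attach or remove ubiquitin rose. Of 35 E1 and E2 enzymes, 6 were called higher and 0 lower (8 and 2 with the replicate block), and of 77 deubiquitinases 22 were called higher and 2 lower. *Ube2f* rose from between 20.4 and 22.2 to between 50.2 and 80.6 CPM. *Usp47* rose from 99.7, 84.9 and 128 CPM to 335, 330 and 338 CPM, while the deubiquitinase *Mindy2* fell from 211, 160 and 221 CPM to 82.1, 95.7 and 103 CPM. The other deubiquitinase called lower, *Usp46*, was not called on total counts, nor when Ctrl 2, Ctrl 3, MG132 1 or MG132 3 was left out (adjusted p 0.0104 to 0.0232). None of the 4 genes for ubiquitin itself was called in either direction, at a summed 10.6 to 20.5 CPM in Ctrl and 15.2 to 20.6 CPM in MG132. In somas 1 of the 4 was called higher. At so low a summed level, the missing calls in neurites say little about whether these genes moved. For *Ubb*, 56.8% of the 75-base windows of its transcript also occur in other genes, and the counting of reads that match several places is not given in the sources used here, so its count is uncertain.

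Of 49 autophagy genes, 11 were called higher and 2 lower (14 and 5 with the replicate block). Besides *Sqstm1*, the receptor *Tax1bp1* rose from 212 ± 24.7 to 531 ± 33.2 CPM (SD, n = 3) and *Rb1cc1*, a scaffold of the initiation complex, from between 64.7 and 77.6 to between 182 and 214 CPM. The kinase *Ulk2* fell from between 99.5 and 128 to between 51.7 and 56.9 CPM. *Wipi1*, also called lower, was not called on total counts or without Ctrl 2, Ctrl 3, MG132 1 or MG132 3 (adjusted p 0.0244 to 0.0290), and *Tax1bp1* was not called on total counts. Of 59 tested lysosome genes, 5 were called higher (8.47%, near the 9.25% of all tested genes) and 0 lower, and 3 of these encode subunits of the proton pump. *Atp6v1h* rose from 53.7, 64.1 and 61.2 CPM to 195, 200 and 183 CPM (log2 fold change 1.69, SE 0.16, adjusted p = 4.04e-06). *Atp6v1c1* and *Atp6v1d* rose with log2 fold changes of 1.12 and 1.07 but were not called on total counts. *Gla*, a galactosidase, rose from between 7.94 and 24.7 to between 41.7 and 71.9 CPM. *Ctsl* lost its call without Ctrl 1, Ctrl 2 or MG132 2 (adjusted p 0.0169 to 0.0235) and on total counts. With the replicate block, 8 lysosome genes were called lower.

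Subunits of chaperonins and part of the other folding factors rose. All 8 tested subunits of the TRiC chaperonin, the ring that folds actin and tubulin, were called higher, with log2 fold changes from 1.04 to 1.80. *Cct6a* measured 58.7, 66.3 and 64.6 CPM in Ctrl and 223, 222 and 217 CPM in MG132 neurites. On total counts 2 of the 8 were called. Among 31 genes of mitochondrial protein quality control 6 were called higher, led by the matrix chaperones *Hspd1*, *Hspa9* and *Hspe1*. *Hspd1* rose from 110, 104 and 113 CPM to 570, 636 and 731 CPM (log2 fold change 2.57, SE 0.18), although 33.7% of its windows also occur in other genes. Of 41 co-chaperones 13 were called higher, and *Serpinh1*, a chaperone for collagen, rose from between 16.1 and 24.1 to between 136 and 149 CPM. Of 46 genes for endoplasmic reticulum chaperones and the unfolded protein response 9 were called higher and 0 lower (13 and 1 with the replicate block). *Dnajb9*, an inhibitor of the sensor IRE1, rose from 33.6, 39.0 and 40.5 CPM to 217, 136 and 198 CPM. *Atf6*, a sensor itself, rose from between 24.6 and 41.2 to between 73.5 and 94.3 CPM but was not called on total counts.

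The integrated stress response, in which phosphorylation of eIF2 slows translation and favors ATF4, was called widely. Of 42 tested genes 25 were called higher and 1 lower (median log2 fold change 1.81), and the summed level rose from between 1137 and 1198 CPM to between 3729 and 4032 CPM. *Ppp1r15a*, the phosphatase subunit that reverses the phosphorylation of eIF2, rose from 12.7, 12.3 and 12.3 CPM to 91.3, 119 and 148 CPM (log2 fold change 3.27, SE 0.22, adjusted p = 3.90e-07). *Atf3*, a repressor induced by ATF4, rose from 14.3, 13.9 and 28.8 CPM to 331, 341 and 410 CPM (log2 fold change 4.25, SE 0.32). The member called lower was *Atf5*, itself a transcription factor of this response, at 284, 162 and 175 CPM in Ctrl and 80.3, 87.7 and 53.3 CPM in MG132 neurites (log2 fold change -1.48, SE 0.25, adjusted p = 4.80e-04). The aminoacyl-tRNA synthetases, which load amino acids onto tRNAs and include known ATF4 targets, rose with them: 14 of 23 were called higher and 0 lower (median 1.24). *Cars* went from 19.1, 20.7 and 13.8 CPM to 110, 127 and 109 CPM, and *Rars* and *Gars* had log2 fold changes of 2.48 and 1.90.

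Stretches of the promoters of 3 of these genes show the CEBP-ATF response element, the composite site to which ATF4 and CHOP are known to bind. The element was searched as TGATGNAA on both strands of RefSeq promoters (GRCm38.p6, from 250 bases before to 50 after the start site). The stretches are printed 5′ to 3′ on the strand of the gene, with the match in capitals, and all 3 matches lie on the opposite strand. Slc7a11 is from chr3:50443645-50443668 (minus strand), Chac1 from chr2:119351041-119351064 (plus strand) and Atf3 from chr1:191183428-191183451 (minus strand).
Slc7a11: tggagaatTTGCATCAtcatgcag
Chac1: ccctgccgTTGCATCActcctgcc
Atf3: tctcgcacTTGCATCAccaagtcc
The 3 matches have the same letters and begin 47, 193 and 110 bases before the start site. A promoter sequence was matched for 11007 of the tested genes. The element was found in 10 of 34 promoters of the integrated stress list (29.4%) and in 5 of 16 of the synthetases (31.2%), against 2.76% of all tested genes, 3.98% of those called higher and 2.39% of those called lower. A match describes letters and is not a measured binding site.

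The antioxidant list, known targets of NRF2, held calls in both directions. Of 39 tested genes 9 were called higher (23.1%) and 3 lower (7.69%), against 9.25% and 5.44% of all tested genes. The median log2 fold change of 0.11 was near 0 and fell below it under some settings. *Srxn1*, a sulfiredoxin, rose from 133, 138 and 178 CPM to 601, 618 and 684 CPM (log2 fold change 2.08, SE 0.19), as did *Slc7a11*, *Sqstm1*, *Hmox1* and *Txnrd1* above. *G6pdx*, which supplies NADPH, fell from 67.7, 96.4 and 81.7 CPM to 30.6, 37.4 and 40.3 CPM (log2 fold change -1.18, SE 0.21, adjusted p = 7.78e-04). *Gstm1* and *Cbr1* were also called lower, but *Gstm1* not without Ctrl 2, MG132 1 or MG132 3 (adjusted p 0.0181 to 0.0212), and *Cbr1* not on total counts or in 5 of the 6 fits that left out a library, all but that without Ctrl 3 (adjusted p 0.0143 to 0.0332). Of 12 genes for the HSF, CNC and small MAF factors that drive these programs 4 were called higher. *Bach1*, a repressor of *Hmox1*, rose from 14, 26.4 and 34.5 CPM to 65.2, 107 and 123 CPM and *Hsf2* from between 12.3 and 22 to between 57.2 and 74.1 CPM. *Mafg*, a small MAF partner, had a log2 fold change of 1.32. *Hsf1* had 1.69 but was not called without Ctrl 1, Ctrl 2, MG132 2 or MG132 3 (adjusted p 0.0102 to 0.0242), and neither *Mafg* nor *Hsf1* was called on total counts. Among 10 metal response genes *Mt1*, a metallothionein called lower, was the only call (10%, against 5.44% of all tested genes). With the replicate block 1 was called higher and 1 lower. *Mt1* measured 289 ± 33.8 CPM in Ctrl and 129.7 ± 43.3 CPM in MG132 neurites (SD, n = 3), and its call was lost on total counts.

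Promoters of *Txnrd1*, of the glutamate-cysteine ligase subunit *Gclm* and of *Psmc6*, an ATPase of the 19S cap, illustrate the antioxidant response element. It was searched as TGACNNNGC on both strands, and the matches shown lie on the strand opposite to the gene. Txnrd1 is from chr10:82859106-82859130, Gclm from chr3:122245415-122245439 and Psmc6 from chr14:45329589-45329613, all on the plus strand of GRCm38.p6.
Txnrd1: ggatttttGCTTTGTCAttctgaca
Gclm: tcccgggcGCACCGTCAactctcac
Psmc6: agccagtaGCTAAGTCAggcattgc
These letters are common. They were found in 16.9% of the promoters of all tested genes, in 12 of 31 of the antioxidant list (38.7%), 4 of 16 of the 19S list (25%) and 2 of 14 of the 20S list (14.3%), and also in 32.4% of the integrated stress list and 37.5% of the synthetases.

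The heat shock element, to which HSF1 binds as a trimer, was searched on both strands as the blocks GAA, TTC and GAA, or TTC, GAA and TTC, each 2 bases apart. It is shown for the p97 cofactor *Nploc4* and for the gene pair *Hspd1* and *Hspe1*, which share a promoter on opposite strands of chromosome 1. Nploc4 is from chr11:120437856-120437884 (minus strand), Hspd1 from chr1:55088051-55088079 (minus strand) and Hspe1 from chr1:55088056-55088084 (plus strand).
Nploc4: cattgctcGAACTTTCAGGAAtatggctc
Hspd1: gccttccgGAAGGTTCTAGAAcggaccgt
Hspe1: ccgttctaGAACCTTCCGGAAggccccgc
The *Hspd1* and *Hspe1* windows overlap, and their matches lie on opposite strands, offset from each other and sharing only part of their bases. The element was found in 4 of 51 promoters of the heat shock proteins (7.84%), against 0.572% of all tested genes, 0.854% of those called higher and 0.855% of those called lower.

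Cytokines and genes of the NF-κB pathway were called higher in 13 of 48 cases and lower in none (19 and 3 with the replicate block). The median log2 fold change of the list was 0.67 and lay between -0.01 and 1.29 over the settings tried, while the chemokines named above stood far out. The summed level rose from between 556 and 892 CPM to between 1029 and 2768 CPM. The κB element, searched on both strands as GGGA, any base, TT, any base and CC, is shown for 3 chemokine genes that rose. Cxcl1 is from chr5:90891166-90891191 (plus strand), Cxcl2 from chr5:90903794-90903819 (plus strand) and Cxcl10 from chr5:92348975-92349000 (minus strand).
Cxcl1: tgtactccGGGAATTTCCctggcccg
Cxcl2: tgagctcaGGGAATTTCCctggtccc
Cxcl10: gtttacagGGGACTTCCCtcgggttg
The *Cxcl1* and *Cxcl2* matches have the same letters. The element was found in 11 of 35 promoters of the list (31.4%), against 1.56% of all tested genes, 1.99% of those called higher and 1.88% of those called lower.

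**Figure D3:**
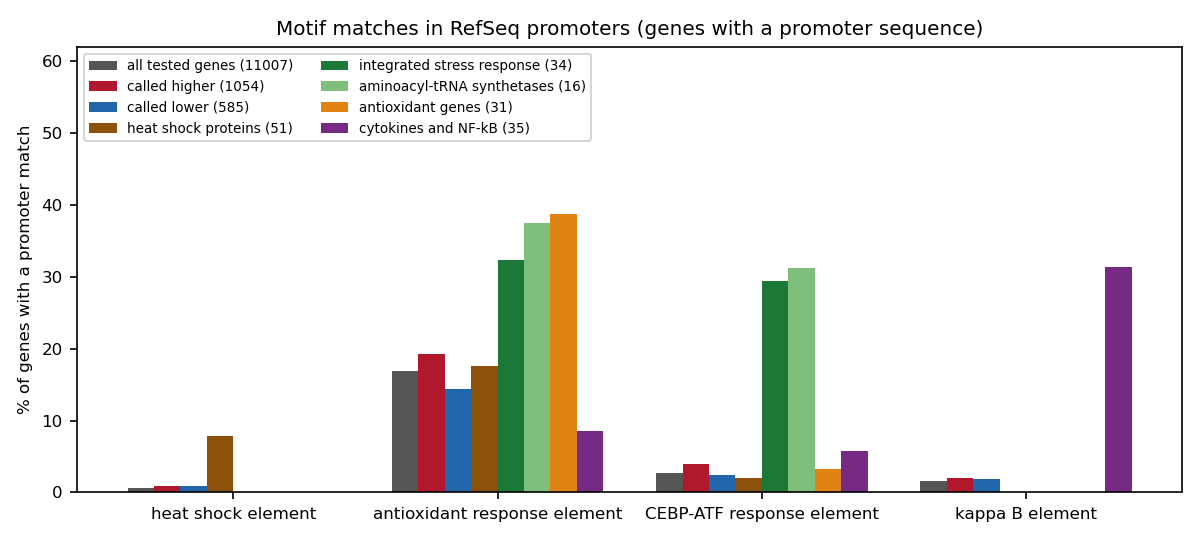
Bars give the percentage of genes with a matched RefSeq promoter that hold each of the 4 motifs, for all tested genes, for genes called higher or lower and for 5 gene lists, with the number of promoters in parentheses. The CEBP-ATF element stands at 29.4% in the integrated stress list and the κB element at 31.4% in the cytokine list, against 2.76% and 1.56% of all tested genes.

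Genes of p53 signaling and apoptosis had calls in both directions. Of 46 tested, 14 were called higher (30.4%) and 3 lower (6.52%), against 9.25% and 5.44% of all tested genes. The 3 *Gadd45* genes, growth arrest genes induced by stress, all rose, *Gadd45a* from 6.09, 9.51 and 10.3 CPM to 87.6, 86.0 and 103 CPM and *Gadd45g* from 4.76, 6.15 and 8.24 CPM to 65.5, 109 and 61.1 CPM. The genes called lower encode inhibitors of cell death or a stress sensor. *Bcl2*, which blocks mitochondrial apoptosis, fell from 94.2, 77.4 and 99.2 CPM to 8.44, 20.7 and 15.4 CPM, a 5.93-fold decrease (log2 fold change -2.57, SE 0.31, adjusted p = 3.68e-05). *Xiap*, a caspase inhibitor, fell from between 101 and 121 to between 46.1 and 57.5 CPM, and *Sesn1*, a sestrin, from between 32.8 and 36.0 to between 6.39 and 7.91 CPM.

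Of 33 immediate early genes, which are switched on by activity and stress without new protein synthesis, 9 were called higher and 0 lower. *Jun* rose from 30.2, 41.0 and 48.6 CPM to 136, 178 and 136 CPM and *Csrnp1* from between 1.32 and 2.57 to between 11.2 and 19.3 CPM. Of 21 activity-regulated effectors 6 were called higher and 2 lower (9 and 4 with the replicate block). *Plk2*, a kinase of synaptic scaling, rose from 29.1, 26.6 and 18.2 CPM to 89.9, 115 and 99.2 CPM, and *Ptgs2*, which encodes cyclooxygenase-2, from between 0.504 and 8.05 to between 51.6 and 93.6 CPM. The neuropeptide gene *Adcyap1* was called lower, except without MG132 3 (adjusted p = 0.0107), and so was *Nrn1*, which kept its call only without MG132 1 (adjusted p 0.0137 to 0.0493 in the other fits). Of 15 phosphatases and inhibitors of MAP kinase signaling 4 were called higher (7 with the replicate block), namely *Dusp1*, *Dusp10*, *Dusp16* and *Spry4*. Each of them lost its call in at least 1 of the fits that left out a library. *Spry4* lost it without MG132 2 (adjusted p = 0.0112), *Dusp16* without Ctrl 2 or MG132 2 (up to 0.0383) and on total counts, *Dusp1* without Ctrl 1, Ctrl 3 or MG132 2 (up to 0.0171), and *Dusp10* without Ctrl 1, Ctrl 2, MG132 1 or MG132 3 (up to 0.0382).

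Genes for the making of ribosomes were called widely. Of 98 ribosome biogenesis genes 51 were called higher and 0 lower (median 1.21), and their summed level rose from between 2513 and 3081 CPM to between 6913 and 7962 CPM. *Gtpbp4*, a GTPase of the large subunit precursor, rose from 30.4, 56.8 and 58.9 CPM to 349, 381 and 356 CPM (log2 fold change 2.89, SE 0.22, adjusted p = 9.12e-07). *Noc3l* and *Wdr43*, both nucleolar, had log2 fold changes of 2.37 and 2.05. Of 77 tested ribosomal protein genes 0 were called in either direction (1 higher with the replicate block), with a median of -0.04 that changed sign between settings. These genes have many near-identical copies in the genome, and how reads matching several places were counted is not given in the sources used here, so their counts are uncertain. Of 64 translation factors 19 were called higher and 1 lower (24 and 2 with the block). The release factor *Etf1* rose from 148, 125 and 201 CPM to 532, 541 and 528 CPM and *Eif3g* from between 20.4 and 24.0 to between 73.3 and 83.3 CPM. The elongation factor kinase *Eef2k* was called lower, but not on total counts, and among the fits that left out a library only without MG132 2 (adjusted p 0.0122 to 0.0358 in the others).

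Noncoding hosts of small nucleolar RNAs, whose introns guide the modification of ribosomal RNA, rose as well, with 8 of 19 called higher and 0 lower. *Snhg1* went from 7.41, 6.26 and 2.52 CPM to 121, 117 and 90.2 CPM (log2 fold change 4.36, SE 0.32), and *Gas5* from 144, 149 and 181 CPM to 484, 500 and 487 CPM. The levels of *Gas5* within each group were tight. Of 67 splicing factors 19 were called higher and 0 lower (21 and 2 with the replicate block). *Taf15*, which encodes an RNA-binding protein, rose from 112 ± 2.94 to 343 ± 30.5 CPM (SD, n = 3), and *Hnrnpdl* and *Tra2a* had log2 fold changes of 1.38 and 2.0.

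In energy metabolism, none of the 10 tested mitochondrially encoded genes was called, and *mt-Rnr2*, the large ribosomal RNA, measured between 64541 and 201469 CPM in Ctrl and between 43727 and 208286 CPM in MG132 neurites. Of 80 nuclear genes of the respiratory chain 0 were called higher and 3 lower (3.75%). Of 25 genes in the glycolysis list 0 were called higher and 3 lower (12%, against 5.44% of all tested genes). With the replicate block 1 and 7 were called, and on total counts 0 and 5. Only 2 of the 25 had a log2 fold change above 0 (median -0.54). The 3 respiratory genes, *Sdhc*, *Cox7b* and *Ndufb3*, had log2 fold changes of -1.03, -0.90 and -0.93, and 0 of the list were called on total counts. *Cox7b* and *Ndufb3* lost their calls in each of the 6 fits that left out a library (adjusted p 0.01 to 0.0481), and *Sdhc* without Ctrl 1, Ctrl 3, MG132 1 or MG132 3 (0.0129 to 0.0221). From the glycolysis list *Ldha* was called, and so were *Pdk1* and *Pdk2*, which encode pyruvate dehydrogenase kinases and not glycolytic enzymes. Each of the 3 lost its call in 4 of these fits. *Ldha* did so without Ctrl 1, Ctrl 3, MG132 1 or MG132 2 (0.0153 to 0.0782), *Pdk2* without the same libraries (0.0141 to 0.0161), and *Pdk1* without Ctrl 3 or any MG132 library (0.0112 to 0.0661). In cholesterol synthesis, 4 of 30 genes were called higher (13.3%) and 1 lower (3.33%), against 9.25% and 5.44% of all tested genes. With the block 5 and 3 were called. *Insig1*, a sterol-sensing regulator of the pathway, rose from between 32.0 and 47.3 to between 92.3 and 115 CPM but was not called on total counts. *Srebf1*, the lipogenic transcription factor, fell from 26.7, 46.7 and 69.5 CPM to 5.48, 9.0 and 11.4 CPM. *Hsd17b7* rose too, except without Ctrl 1, Ctrl 2 or MG132 3 (adjusted p 0.0122 to 0.0250), and *Msmo1*, except without Ctrl 1 or MG132 1 (0.0115 to 0.0116) and on total counts. *Scd2*, a desaturase of fatty acids, was among the largest falls by level, from 4107, 3963 and 4295 CPM to 1887, 2060 and 1662 CPM (log2 fold change -1.14, SE 0.19, adjusted p = 3.85e-04).

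**Figure D4:**
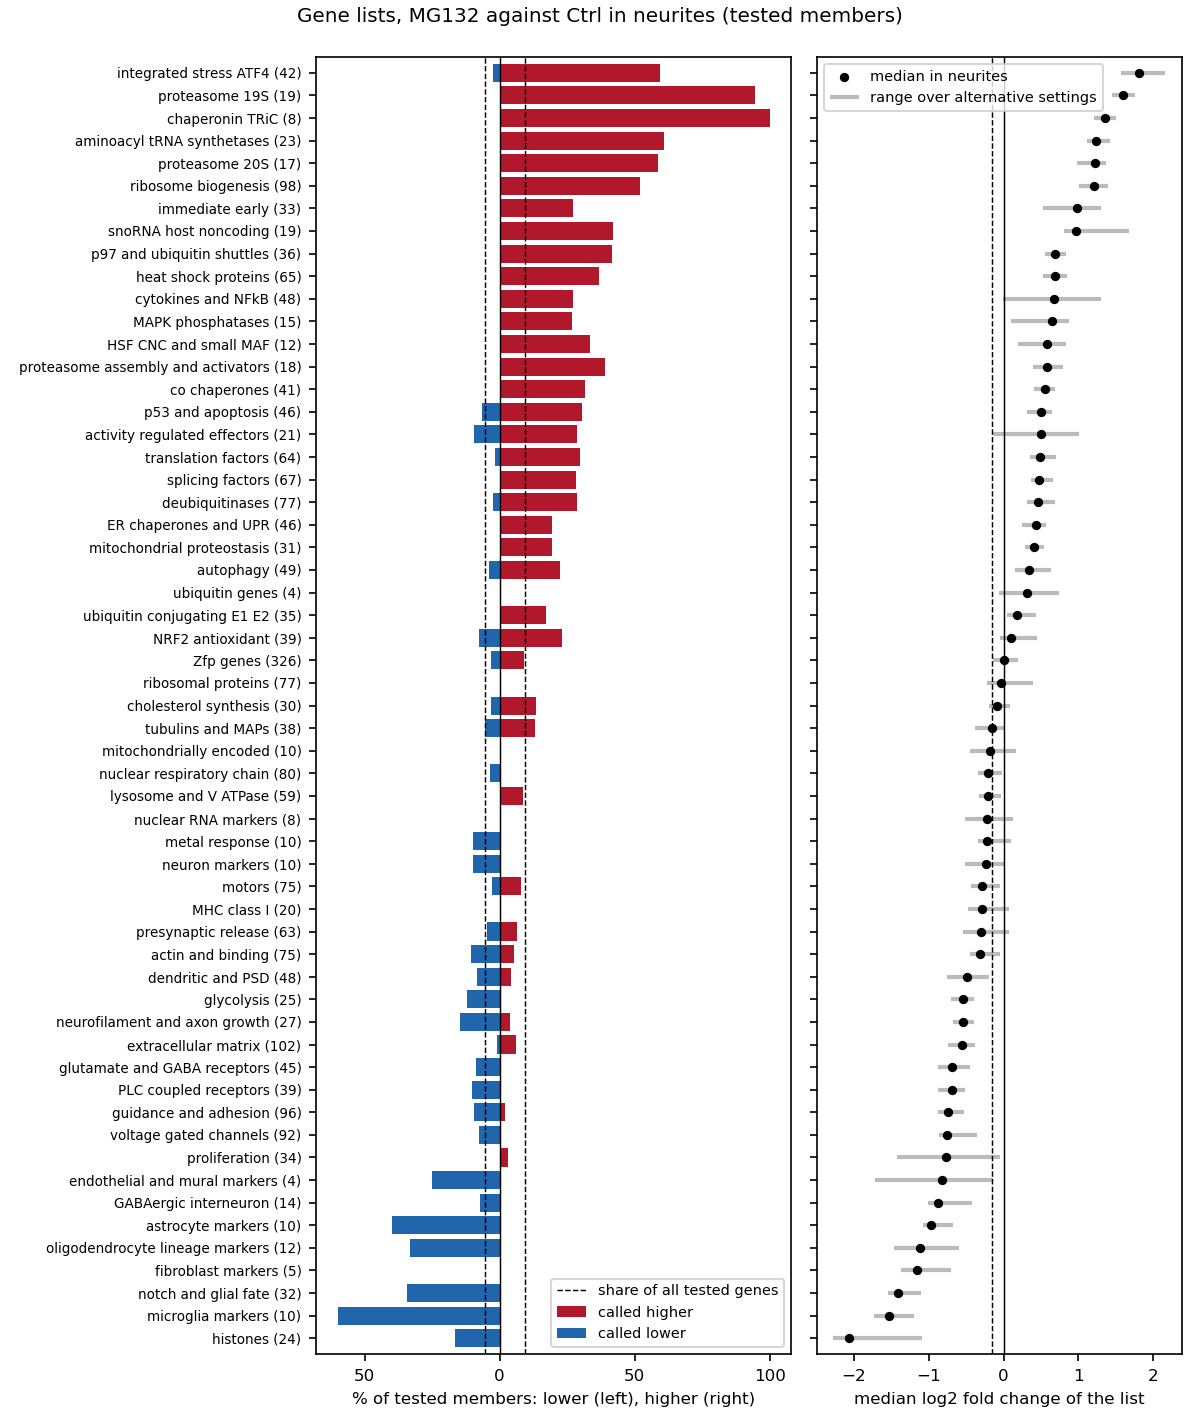
For each gene list (tested members in parentheses) the left panel gives the percentage of members called higher (red, right) or lower (blue, left), with dashed lines at 9.25% and 5.44% for all tested genes. The right panel gives the median log2 fold change with its range over the alternative settings, from 1.81 for the integrated stress response to -2.06 for histones.

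Dendritic and postsynaptic genes had calls in both directions. Of 48 in this list 2 were called higher (4.17%) and 4 lower (8.33%), against 9.25% and 5.44% of all tested genes (median -0.49). With the replicate block 3 and 16 were called, against 11.8% and 9.75% of all. *Fmr1*, the RNA-binding protein of fragile X syndrome, rose from 47.6, 57.1 and 56.3 CPM to 136, 121 and 121 CPM, and *Arhgef2*, a guanine nucleotide exchange factor bound to microtubules, from between 56.6 and 74.0 to between 128 and 187 CPM. Neither was called on total counts. *Synpo*, the actin-binding protein of the spine apparatus, fell from 674 ± 175 to 212 ± 74 CPM (SD, n = 3), a log2 fold change of -1.67 (SE 0.25, adjusted p = 2.09e-04). *Calm3* and *Iqsec1* were also called lower, but *Calm3* in none of the 6 fits that left out a library (adjusted p 0.0127 to 0.0974) and not on total counts. *Iqsec1* lost its call without Ctrl 1, Ctrl 3, MG132 2 or MG132 3 (adjusted p 0.0139 to 0.0403). *Camk2a*, the kinase mRNA known for its place in dendrites, measured 2243, 604 and 978 CPM in Ctrl and 1350, 385 and 1015 CPM in MG132 neurites (log2 fold change -0.48, SE 0.52, adjusted p = 0.529). Its libraries spread too widely within groups for a change of this size to be resolved.

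Of 63 presynaptic genes 4 were called higher (6.35%) and 3 lower (4.76%), both below the 9.25% and 5.44% of all tested genes (6 and 9 genes with the replicate block). The active zone scaffolds *Erc1* and *Ppfia1* rose, *Erc1* from 85.2, 74.0 and 81.1 CPM to 214, 135 and 255 CPM, and *Syt4* rose from between 14.6 and 37.5 to between 75.5 and 85.3 CPM. *Sv2c* rose except without Ctrl 1 or Ctrl 3 (adjusted p 0.0113 to 0.0144). *Syt11* fell from 319, 362 and 408 CPM to 167, 197 and 164 CPM. *Ppfia4*, called lower, lost its call without Ctrl 1, Ctrl 3, MG132 1 or MG132 2 (0.0187 to 0.0264). On total counts *Ppfia1*, *Sv2c* and *Syt11* were not called.

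Receptor and channel lists held a few genes called lower, at shares from 7.61% to 10.3% against 5.44% of all tested genes. Of 45 glutamate and GABA receptor genes 0 were called higher and 4 lower (8.89%), or 8 with the replicate block (median -0.68). Of 92 voltage-gated and related channels 0 were called higher and 7 lower (7.61%), or 16 with the block (median -0.75). *Gabrb1*, a GABA-A receptor subunit, fell from 118, 51.8 and 63.6 CPM to 21.9, 19.5 and 17.9 CPM, and *Cacng4*, an auxiliary subunit of AMPA receptors, from between 17.2 and 31.4 to between 2.51 and 7.23 CPM. *Grm3*, a metabotropic glutamate receptor, was called lower except without Ctrl 2, Ctrl 3, MG132 1 or MG132 3 (adjusted p 0.0201 to 0.0561). *Kcnj10*, the inward rectifier typical of glia, fell from 3004, 2225 and 2199 CPM to 451, 711 and 207 CPM (log2 fold change -2.44, SE 0.37, adjusted p = 2.29e-04). *Kcna2*, a potassium channel of axons, fell from 95.3, 68.1 and 60.9 CPM to 19.8, 14.3 and 14 CPM. Of 39 G protein-coupled receptors in a further list 0 were called higher and 4 lower (10.3%; 8 genes with the block), namely *Gpr17*, *Gpr37l1*, *Lpar1* and *S1pr1*, each of which lost its call in some of the fits that left out a library. *Gpr37l1* lost it without MG132 3 (0.0157), *Gpr17* without Ctrl 1, Ctrl 2, MG132 1 or MG132 3 (up to 0.0410), *Lpar1* without Ctrl 3 or any MG132 library (up to 0.0281), and *S1pr1* in all but the fit without Ctrl 3 (up to 0.0284). On total counts *Grm3*, *Lpar1* and *S1pr1* were not called.

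The cytoskeleton lists held calls in both directions. Of 38 tubulins and microtubule-associated proteins 5 were called higher (13.2%) and 2 lower (5.26%), against 9.25% and 5.44% of all tested genes. With the replicate block 7 and 5 were called. *Map1b* rose, as given above, while *Mapt*, which encodes tau, the axonal microtubule protein, fell from 185, 159 and 187 CPM to 89.2, 83.7 and 73.9 CPM (log2 fold change -1.10, SE 0.16, adjusted p = 1.54e-04). The end-binding protein *Mapre3* rose from between 19.5 and 22.8 to between 37.4 and 46.5 CPM, *Map7d1* rose except without Ctrl 2 (0.0142), *Tubb6* except without Ctrl 2 or MG132 2 (0.0122 to 0.0136), and *Tbce* except without Ctrl 2, Ctrl 3, MG132 1 or MG132 3 (0.0159 to 0.0319). None of the increases in this list was called on total counts. *Stmn2*, a microtubule-destabilizing protein of axons, was called lower, but among the fits that left out a library only without MG132 1 (adjusted p 0.0106 to 0.0779 in the others), and not on total counts.

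Of 27 neurofilament and axon growth genes 1 was called higher (3.7%) and 4 lower (14.8%), against 9.25% and 5.44% of all tested genes. With the block 2 and 6 were called. The gene called higher was *Atf3*. Those called lower were *Dpysl2*, from 146, 142 and 130 CPM to 61.4, 51.2 and 86.6 CPM, and, less firmly, *Cntn1*, *Marcks* and *Stmn2*. *Cntn1* was lost without MG132 3 (adjusted p = 0.0330) and on total counts, and *Marcks* without Ctrl 2, MG132 1 or MG132 3 (0.0158 to 0.0189). Of 75 actin genes 4 were called higher (5.33%) and 8 lower (10.7%), against 9.25% and 5.44% of all tested genes. *Actb*, the β-actin mRNA known to localize to growth cones and dendrites, fell from 861, 1116 and 1175 CPM to 270, 331 and 394 CPM (log2 fold change -1.66, SE 0.19, adjusted p = 2.15e-05). The lowest Ctrl library of *Actb* was above the highest MG132 library by more than the range within either group. The study, which showed read profiles of the locus, describes β-actin mRNA in projections as unchanged upon MG132, unlike the call here. *Ezr*, a linker of actin to the membrane, rose from 241.8 ± 13.1 to 753 ± 88.7 CPM (SD, n = 3). *Flnc*, a filamin, and *Wasl*, an activator of actin branching, had log2 fold changes of 1.83 and 1.54, and *Rdx*, close kin of *Ezr*, rose except without Ctrl 2 (0.0113) and on total counts. *Ahnak*, a giant scaffold of the cell cortex (chr19:8989284-9076935), had one of the largest falls, from 587, 483 and 828 CPM to 32.9, 38.4 and 65.0 CPM (log2 fold change -3.80, SE 0.28, adjusted p = 7.56e-07).

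Motor, guidance and matrix genes were called at shares near or below those of all tested genes (9.25% higher and 5.44% lower), apart from guidance genes called lower, and single members are described here. Of 75 motor genes 6 were called higher (8.0%) and 2 lower (2.67%). *Kif21a*, a kinesin, rose from 85.5, 81.6 and 99.9 CPM to 421, 311 and 487 CPM. The dynein partner *Ndel1* rose from between 23.8 and 32.1 to between 148 and 192 CPM. *Dync1li1*, which encodes a subunit of dynein, rose from between 23.5 and 35.5 to between 109 and 148 CPM. *Kif19a* fell from between 6.89 and 14.3 to between 0.684 and 1.99 CPM. *Kif1c* was called lower except without Ctrl 3, MG132 1 or MG132 3 (adjusted p 0.0270 to 0.0559) and on total counts. Of 96 guidance and adhesion genes 2 were called higher (2.08%) and 9 lower (9.38%; 3 and 16 with the replicate block). *Epha2*, an ephrin receptor, rose from at most 0.504 CPM to between 5.25 and 10.6 CPM. *Efnb2*, which encodes an ephrin, was called higher, but not on total counts. In the fits that left out a library it was called only without Ctrl 2 (0.0108 to 0.0342 in the others). *Ntn4*, a netrin, fell from 44.7, 69.3 and 93.0 CPM to 7.30, 14.8 and 10.3 CPM and *Plxnb2*, a semaphorin receptor, from between 139 and 167 to between 59.1 and 71.3 CPM. Of 102 extracellular matrix genes 6 were called higher (5.88%) and 1 lower (0.98%; 9 and 9 with the block). Besides *Mmp13*, the protease *Adamts1* rose from 64.7 ± 16.7 to 237.7 ± 89.6 CPM (SD, n = 3). *Mmp14*, the gene called lower, lost its call in each of the 6 fits that left out a library (0.0119 to 0.0390).

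Markers of glia and microglia were among the genes called lower. *Cx3cr1*, the fractalkine receptor of microglia (Entrez 13051, chr9:120048683-120068296), measured 219, 231 and 499 CPM in Ctrl neurites and 7.30, 4.52 and 4.79 CPM in MG132 neurites, a 59.0-fold decrease (log2 fold change -5.88, SE 0.43, adjusted p = 7.37e-07). *P2ry12*, a purine receptor of resting microglia, fell from 8.47, 13.3 and 9.92 CPM to 0.456, 1.13 and 0.888 CPM. *Csf1r*, the receptor for their survival factor, fell less, from 83.3, 61.7 and 106 CPM to 29.0, 24.8 and 44.0 CPM. Of 10 microglial markers 6 were called lower and 0 higher, all 10 had negative log2 fold changes, and their summed level went from between 781 and 1449 CPM to between 138 and 330 CPM. Other genes among the largest decreases, such as *Ptpn6* and *Rasgrp3*, are known from blood cells and their kin. *Tifab* and *Gpsm3* belonged to this group too but lost their calls without Ctrl 3 or MG132 2 (adjusted p 0.0124 to 0.0282).

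Of 12 oligodendrocyte lineage markers 4 were called lower and 0 higher (8 lower with the replicate block), and the summed levels were 14300, 5385 and 23430 CPM in Ctrl and 7242, 3042 and 16860 CPM in MG132. The ranges of the groups overlapped, while within each same-numbered pair the MG132 library was lower. *Pdgfra*, which marks precursors, fell from 66.1, 176 and 50.4 CPM to 5.93, 16 and 2.49 CPM, and *Olig1* and *Sox10*, transcription factors of the lineage, had log2 fold changes of -2.15 and -2.42. *Cspg4* was called lower except without Ctrl 2 (adjusted p = 0.0111). *Mbp*, a myelin mRNA known to travel into processes, did not pass the test (log2 fold change -0.66, adjusted p = 0.594), and its value was 0.03 without Ctrl 3. It was lower in MG132 in each same-numbered pair, and with the replicate block its adjusted p was 0.00531 at a log2 fold change of -0.74, which is within 1.7-fold. Of 10 astrocyte markers 4 were called lower, *Aqp4* from 346, 391 and 370 CPM to 141, 149 and 114 CPM and *Sox9* from 115, 121 and 85.8 CPM to 28.1, 48.8 and 36.8 CPM, together with *Slc1a2* and *S100b*. The calls of *Slc1a2* and *S100b* were lost without Ctrl 3 or MG132 3 (0.0106 to 0.0218), and that of *S100b* also on total counts. The summed astrocyte level went from between 20920 and 25900 CPM to between 9696 and 19780 CPM. Most of this sum was *Gfap*, which was not called (log2 fold change -0.66, edgeR adjusted p = 0.154). The *Gfap* ranges overlapped, at 15606 to 21600 CPM in Ctrl and 6893 to 17484 CPM in MG132 neurites. Within each same-numbered pair, however, *Gfap* was lower in MG132. With the replicate block its edgeR adjusted p was 7.8e-04 at a log2 fold change of -0.74, which is within 1.7-fold. Of 32 genes of Notch signaling and glial fate 0 were called higher and 11 lower, and 3 and 13 with the block (median -1.41). *Nfia*, a factor of gliogenesis, fell from 225, 213 and 210 CPM to 72.8, 68.0 and 81.7 CPM, and *Id4* from between 24.7 and 78.1 to between 4.26 and 8.44 CPM.

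**Figure D5:**
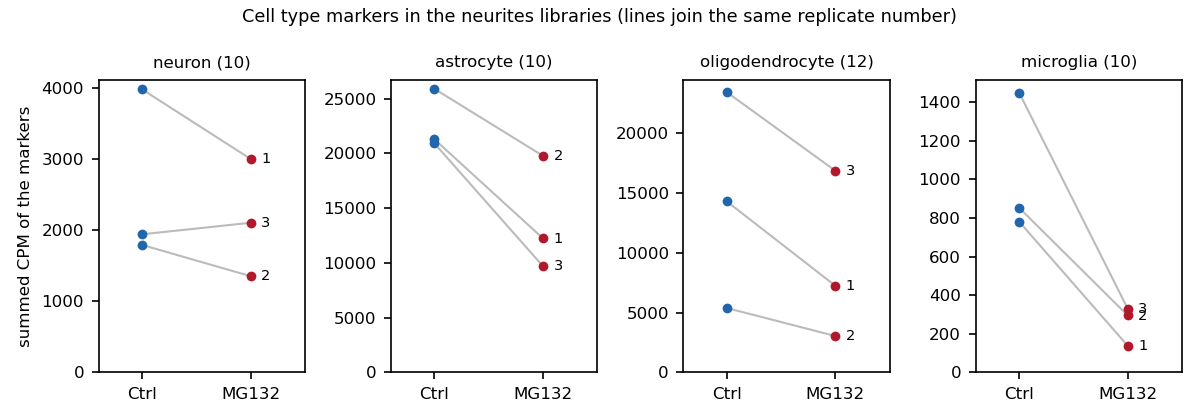
Summed CPM of the marker genes of 4 cell types in each neurites library, with lines joining libraries of the same replicate number (number of markers in parentheses). Neuron and oligodendrocyte sums overlap between Ctrl and MG132, while astrocyte and microglia sums do not, and the oligodendrocyte sum is lower in MG132 within each pair. The astrocyte sum is mostly *Gfap* and the oligodendrocyte sum mostly *Mbp*, neither of which was called.

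Of 10 neuron markers 0 were called higher and 1 lower (10%, against 5.44% of all tested genes), namely *Stmn2*. With the replicate block 1 and 1 were called. The sums of these markers overlapped, at 1795 to 3986 CPM in Ctrl and 1355 to 3005 CPM in MG132. Among 14 interneuron genes 0 were called higher and 1 lower (7.14%, against 5.44% of all tested genes), or 2 lower with the block. The gene called lower was the calcium buffer *Pvalb*, from 16.1, 11.0 and 6.89 CPM to 0.684, 1.85 and 2.49 CPM. None of the 8 nuclear RNA markers was called (1 higher and 1 lower with the block), and *Malat1*, a nuclear noncoding RNA, measured between 1457 and 3188 CPM in Ctrl and between 1746 and 3580 CPM in MG132 neurites. Of the 6 endothelial and mural markers 4 were tested and 1 was at 0 in all 6 libraries. *Pdgfrb* was called lower at 4.76, 7.05 and 5.72 CPM against 1.83, 0.678 and 0.71 CPM, and it lost its call without Ctrl 2, Ctrl 3, MG132 2 or MG132 3 (adjusted p 0.0169 to 0.0348). None of 5 fibroblast markers was called (2 lower with the block). The part of a changing share of glial RNA in the other decreases was not tested.

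Linker and core histone genes had calls in the downward direction only. Of 24 tested genes 0 were called higher and 4 lower (7 with the replicate block), which is 16.7% against 5.44% of all tested genes. The median log2 fold change was -2.06, but it lay between -2.27 and -1.09 over the settings tried and at -1.56 with only the neurites libraries. The summed level went from between 427 and 456 CPM to between 96.3 and 140.5 CPM. *H1f0*, the linker histone of resting cells, fell from 204.8 ± 39.3 CPM to 21.4, 24.6 and 22.9 CPM (SD, n = 3). This was an 8.87-fold decrease (log2 fold change -3.15, SE 0.19, adjusted p = 1.16e-07). *H2bc4* fell from between 39.0 and 55.0 to between 7.10 and 12.7 CPM and *H2aw* from between 8.24 and 12.4 to between 0.913 and 1.60 CPM, with 27.1% and 30.6% of their windows shared with other genes. *H1f2* was called lower except without Ctrl 2, MG132 1 or MG132 3 (adjusted p 0.0131 to 0.0153). The name pattern that built this list also took *H13* and *H19*, which encode no histone. Many histone mRNAs lack a polyA tail and are poorly captured by the library method. Of 34 proliferation genes 0 were called lower and 1 was called higher (2.94%, against 9.25% of all tested genes). With the block 5 were called lower and 1 was called higher. The gene called higher in the main fit was *Mcm7*, a helicase of DNA replication. Among the fits that left out a library *Mcm7* was called only without MG132 3 (0.0120 to 0.0222 in the others), and it was not called on total counts.

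The transcripts of called genes also differed in build, given here as descriptions without a test. Of 1277 protein-coding genes called higher and 750 called lower for which a transcript was found, the median coding length was 1692 and 1401 bases against 1419 for all tested genes, and the median number of exons was 12 and 8 against 9. The share of genes with at most 2 exons was 2.66% among those called higher, 12.5% among those called lower and 6.96% in all. Median 3′UTR length was 1409, 1898 and 1210 bases in the same order, and the letters TATTTAT, found in many unstable mRNAs, occurred in 40.4%, 30.4% and 31.0% of the 3′UTRs. The share called higher rose along the bins of coding length, from 4.61% up to 600 bases to 12.9% above 4500 bases, while the share called lower stayed between 5.25% and 6.68%. These features go together with level and with each other, and their part was not separated.

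For the called genes, the somas of the same cultures gave nearly the same directions. Of the genes called higher in neurites 1300 also had a somas value above 0, and of those called lower 761 had a somas value below 0. This agreement was not counted over all tested genes. The difference between the neurites and the somas response was tested directly, and edgeR called 0 of 14185 genes (0% in either direction) at an adjusted p under 0.01, with a lowest adjusted p of 0.328. At an unadjusted p under 0.05 there were 1000 genes (7.05%), DESeq2 called 29, and with the replicate block 14 genes were called with a larger (0.0987%) and 7 with a smaller (0.0493%) response in neurites. Among the genes named here, *Psmd6* had log2 fold changes of 2.34 in neurites and 1.22 in somas, *Ahnak* of -3.80 and -2.40, and *Map1b* of 1.21 and 0.52, and the differences did not pass the test in either fit. Genes that passed with the block, named here after their values were seen, included *Ssb* (1.56 in neurites and 0.21 in somas), which binds nascent transcripts of RNA polymerase III, the splicing protein *Pnn* (1.63 and 0.32), and *Setd7*, a methyltransferase (-1.60 and -0.26). For *Fabp7*, a marker of radial glia (-0.19 and -1.71), the value in neurites was near 0 and that in somas negative.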

How the data were processed

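Per the study's methods and processing notes, the authors trimmed single-end reads with Trimmomatic 0.38.0, aligned them to mm10 with STAR and counted them per gene with featureCounts 2.0.1 at default parameters. Libraries were made from polyA-selected RNA with a KAPA Hyperprep kit. Strand setting, annotation release and the handling of reads that match several places are not given in the sources used here. The deposited values are raw counts of reads per Entrez gene, 1 file per library, without normalization or filter. All 12 libraries were mapped to their groups by title, and no pair of the 66 possible ones held identical counts (libraries of a neurites group differed beyond counting noise, with chi-square over degrees of freedom from 30.3 to 233).

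The counts were fitted with edgeR 4.0.16 and limma 3.58.1 in R 4.3.3. After filterByExpr by group and TMM scaling, all 12 libraries entered 1 quasi-likelihood model with a mean for each of the 4 groups. P-values were adjusted by Benjamini-Hochberg over 14185 genes. Standard errors are the log2 fold change over the square root of the F statistic. DESeq2 1.42.0 was an alternative, also the tool of the study. On simulated counts for this comparison, log2 changes of 1, 2 and 3 were recovered for 0.5%, 49.5% and 74.0% of 200 changed genes (13810, 13895 and 13835 genes in the step), with 0 to 1 unchanged genes called. Far fewer genes were changed in each step than were called in the data. The adjusted p was therefore stricter there, and these shares do not give the power of the comparison itself.

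The replicate numbers were taken to pair the samples. The departures of same-numbered Ctrl and MG132 neurites libraries from their own group means had correlations of 0.185, 0.248 and 0.224 across genes. The pairing rests on the numbers in the titles and this check. The date in the name of an MG132 neurites library differs from those of the others with its number, so the pairing remains an assumption. Fits with the number as a block are given where they changed a count of calls in the text by over 1.5 times.

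Genes were named by rule: the 12 largest increases and decreases among called genes with a symbol at a mean of at least 5 CPM and of 1 direction in all 3 pairs, the 6 largest of each in CPM, heat shock proteins left out of both, and from each of 57 gene lists the 3 called members of lowest p, the member of highest level and the called members of lists with 5 or fewer calls in a direction. *Camk2a* and *Actb* were added because the study names them. *Gclm*, *Psmc6*, *Ssb*, *Pnn*, *Setd7*, *Fabp7*, *H13* and *H19* fall outside the rule and were chosen after their values were seen. Some genes that the rule picked are not reported here. The comparison, the lists and the rule were chosen with earlier results of these data known. Symbols came from RefSeq (93.0% of identifiers matched), transcripts from the GENCODE annotation and promoters from RefSeq (GRCm38.p6, 18458 genes). In that table TATAAA was most frequent 29 bases before the start site, as a check of its orientation.

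Alternatives were other normalizations, DESeq2, other count filters, only the neurites libraries, the replicate block, other thresholds and each neurites library left out. Leaving out both libraries numbered 1, and the block within neurites alone, were added after seeing the data.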

Additional observations from a re-analysis of the deposited data

Results flagged for a closer look

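A pair of named genes stood out because their MG132 response differed between neurites and somas in the test of the difference itself, with the replicate number as a block. *Atf5* had a log2 fold change of -1.48 in neurites and -0.01 in somas, a difference of -1.46 (SE 0.26, edgeR adjusted p = 0.00684). *Canx*, which encodes the lectin chaperone calnexin of the endoplasmic reticulum, had 0.81 in neurites and -0.23 in somas, a difference of 1.04 (SE 0.19, edgeR adjusted p = 0.0089). Its levels were 923, 1029 and 1308 CPM in Ctrl and 1715, 2002 and 1944 CPM in MG132 neurites, and its call in neurites was lost without Ctrl 1, Ctrl 2 or MG132 2 (edgeR adjusted p 0.0204 to 0.0258). Without the block the adjusted p of the difference was 0.328 for *Atf5* and 0.414 for *Canx*, so neither difference passed there. The cause was not tested.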

How the results depend on the processing

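The 1312 genes called higher became 481 on total counts and 346 at a log2 fold change beyond 1.7. The 772 called lower became 1345 with DESeq2, 475 with only the neurites libraries, 1383 with the replicate block, 1539 at an adjusted p under 0.05, 311 at a log2 fold change beyond 1.7 and 341 without both libraries numbered 1. Leaving out a single neurites library gave 996 to 1451 genes called higher and 409 to 588 called lower. The other settings stayed within 1.5 times of the main counts, and DESeq2 called 1296 of the genes called higher and 772 of those called lower. For the difference of response, DESeq2 called 21 genes larger and 8 smaller in neurites, and the block 14 and 7, against 0 and 0. No called named gene changed direction. Among the named genes, total counts ended the calls of 57, only the neurites libraries of 36, and leaving out MG132 3 of 40, while 154 of the 211 called ones kept the call in every fit that left out 1 library. The replicate block ended none. The causes were not tested. Depth limits what genes under 1 CPM can show. A log2 change of 1 was seldom recovered in simulated counts, in which far fewer genes were changed than were called here.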

Other observations

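Named after their values were seen, several genes had changes of opposite sign in neurites and somas in all 3 same-numbered pairs. The kinesin genes *Kif5b* and *Kif1c* had log2 fold changes of -0.48 and -0.81 in neurites and 0.56 and 0.12 in somas, and *Dnajb11*, a chaperone of the endoplasmic reticulum, had 0.87 and -0.13. *Calr*, which encodes calreticulin, had 0.26 in neurites and -0.61 in somas, *Hnrnpa2b1* 0.55 and -0.24, and *Trp53inp2* -0.61 and 0.21. Of these 6 genes *Kif1c* and *Dnajb11* were called in neurites, the other 4 were not (edgeR adjusted p 0.0125 to 0.429), and in somas none passed (0.0616 to 0.676). The difference did not pass the test for any of these 6 genes, without the block (edgeR adjusted p 0.328 to 0.568) or with it (0.0158 to 0.0733).

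Of 326 tested zinc finger genes named *Zfp*, 29 were called higher and 11 lower in neurites (39 and 17 with the replicate block), near the shares of all tested genes. *Zfp655* rose from 21.4, 24.8 and 20.9 CPM to 92.8, 126 and 92.1 CPM, and *Zfp395* fell from 6.35, 5.82 and 18.5 CPM to 0.228, 0.904 and 0.355 CPM. Of 20 MHC class I genes none was called in either direction.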
